A study of Mus musculus with 67 samples.

Results

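The mRNAs of the cytoplasmic ribosomal proteins were taken by symbol: every gene named Rpl or Rps followed by a number and an optional paralog letter, together with Rplp0, Rplp1, Rplp2 and Rpsa. The rule found 85 of the 25006 genes listed. Of these, 77 are core members, 46 of the large and 31 of the small subunit, and 8 are paralogs named after a core gene (Rpl39l, Rpl10l, Rpl22l1, Rps27l, Rpl7l1, Rpl3l, Rps4l and Rpl32l). The study followed mouse cell lineages around implantation with Smart-seq2, an amplified full-length cDNA method, applied to pools of roughly 10 to 100 cells. All 67 libraries came from wild-type embryos, and lineages were separated with the help of an EGFP reporter under the Pdgfra promoter.

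The 23 groups cover inner cell mass (ICM) and trophectoderm (TE) at E3.5. Epiblast (Epi) and primitive endoderm (PrE) were taken at E4.5, E4.75, E5.0 and E5.25. Trophectoderm was taken again at E4.5. Giant cells of the trophoblast (TGC) were taken at E4.75, as was extra-embryonic ectoderm, or ExE. Epiblast at E5.0 and E5.25 also has a group labelled in vivo. At E5.5, epiblast, ExE, TGC and visceral endoderm (VE) were taken from embryos cultured in vitro, and epiblast, ExE and the visceral endoderm over the epiblast (VE_Epi) and over the ExE (VE_ExE) from embryos in vivo. Whether the groups of E4.5 to E5.25 without that suffix came from culture is not given in the labels. Groups hold 3 libraries, except 2 for Epi, ExE and VE_Epi in vivo at E5.5 and 4 for TGC in vitro at E5.5. The labels call the replicates biological but do not say how many embryos each pool holds.

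Ribosomal proteins coat the ribosomal RNA of the small subunit, which decodes mRNA, and of the large subunit, which forms peptide bonds and holds the tunnel through which the new chain leaves. Their mRNAs are among the most abundant in growing cells, and many carry a run of pyrimidines at the 5′ end through which mTOR signalling sets their translation. Several have a paralog with a narrow tissue range, such as Rpl39l and Rpl10l, best known from male germ cells, and Rpl3l, known from muscle.

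Rpl39l and its X-linked partner Rpl39 encode versions of a very small protein in the wall of the exit tunnel. Their coding sequences are shown because Rpl39l had the widest range of all members and because similar copies can exchange reads. Both are 156 bases long in GENCODE M21 (GRCm38). They are printed 5′ to 3′, with capitals at the 23 positions where they differ (85.3% identity).
Rpl39l: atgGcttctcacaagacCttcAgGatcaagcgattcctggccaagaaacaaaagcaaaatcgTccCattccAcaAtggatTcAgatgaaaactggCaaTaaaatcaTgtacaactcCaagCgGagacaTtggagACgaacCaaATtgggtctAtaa
Rpl39: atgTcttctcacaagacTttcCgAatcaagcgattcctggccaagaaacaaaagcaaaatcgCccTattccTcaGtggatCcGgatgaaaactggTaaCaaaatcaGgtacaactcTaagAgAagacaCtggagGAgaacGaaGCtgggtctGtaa
The longest stretch without a difference is 38 bases. Among the other pairs, Rpl10l and Rpl10 share 84.8% of coding positions, Rpl3l and Rpl3 73.3%, Rpl22l1 and Rpl22 67.5%, Rps27l and Rps27 62.3%, and Rpl7l1 and Rpl7 54.5%. Rps4l and Rpl32l are annotated as processed pseudogenes with no coding sequence, so their values are uncertain where reads of Rps4x or Rpl32 could be placed on them.

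Promoter windows are shown for Rps25 and Rpl35, the core members that stood highest at E5.5 relative to the others, and for Rpl39l beside Rpl39. Each runs from 40 bases before to 20 after a RefSeq start (GRCm38.p6), with capitals at the longest run of C or T within 20 bases of the start.
Rps25 (chr9:44407674-44407733, plus strand): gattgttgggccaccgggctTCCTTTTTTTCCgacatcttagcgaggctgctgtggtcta
Rpl35 (chr2:39005112-39005171, minus strand): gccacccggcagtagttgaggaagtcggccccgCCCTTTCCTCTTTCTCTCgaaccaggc
Rpl39l (chr16:10170188-10170247, plus strand): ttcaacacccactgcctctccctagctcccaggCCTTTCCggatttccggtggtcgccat
Rpl39 (chrX:37085203-37085262, minus strand): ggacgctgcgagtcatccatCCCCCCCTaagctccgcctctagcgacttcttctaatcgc
Counted within those 20 bases only, the runs are 12 bases in Rps25, 18 in Rpl35, 7 in Rpl39l and 8 in Rpl39. Those of Rps25 and Rpl39 go on past the edge of that part. Rpl39 also holds another run of the same length, left in lower case. RefSeq windows matched 64 of the 85 members. On the gene's own strand, a run of at least 8 pyrimidines stood in this part of the window in 28 of 57 core members (49.1%), in 3 of 7 paralogs and in 18.4% of 27025 genes. The match is a description of the letters only.

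All 77 core members were above 1 TPM (the share of a transcript in its library's RNA, scaled by its length) in every library, with mean levels from 97.6 to 5087 TPM and a median of 1456. The endoderm, epiblast and giant cell markers were highest or high in the groups so labelled, with exceptions. The summed TPM of Pdgfra, Gata6, Sox17, Dab2, Srgn and Ttr was 2090 to 7472 in PrE and VE libraries and at most 253 in epiblast. The summed TPM of Pou5f1, Tdgf1, Sox2 and Nanog was 99.7 to 163 in Epi E5.0 in vivo against 402 to 506 in Epi E5.0, and 102 to 114 in PrE E4.75. It was 165 to 204 in TE E3.5, above every Epi E5.0 in vivo library, and 90.5 to 96.3 in ExE E4.75. The trophectoderm and ExE markers Cdx2, Elf5, Eomes, Krt18 and Tfap2c went against the labels in part: their sum averaged 2372 TPM in VE in vitro, 2000 in PrE E5.25 and 1014 in Epi E4.75, against 1420.0 in ExE E5.5 in vivo. Cdx2 was listed at 0 in VE in vitro, and a sum does not show which of these genes carried it. The giant cell markers Prl3d1, Prl2c2, Prl3b1, Hand1 and Ctsq together reached 101479 to 115322 TPM in TGC at E5.5, where Prl3b1 and Ctsq were listed at 0. Blood markers stayed at or below 20.3 TPM in sum. Rn45s, the precursor of ribosomal RNA, took 8.32% to 24.8% of TPM in Epi E4.5, PrE E4.5 and Epi E5.0 in vivo and at most 1.24% in the other 20 groups. Because TPM is a share, levels are relative to the other RNA of a library, and in pooled cells fewer cells of a type and less RNA per cell cannot be told apart.

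The summed share of the 85 members in each library's TPM ranged from 6.19% to 23.2%. Its mean was lowest in VE_ExE in vivo, with libraries at 7.70%, 6.19% and 6.52%, followed by PrE E4.5 at 7.20% to 7.70% and VE_Epi in vivo at 6.89% and 8.29%, whose ranges overlap. It was highest in Epi E5.0 in vivo, at 22.7%, 23.2% and 21.4%. Within epiblast the share was 7.89% to 9.40% at E4.5, 16.3% to 16.8% at E4.75, 16.8% to 18.5% at E5.0 and 14.9% to 15.5% at E5.25. At E5.5 it was 13.6% to 14.7% in vitro and 11.03% and 11.9% in vivo. Epiblast had its lowest share at E4.5, beside ICM libraries at 12.9% to 13.3%, but with Rn45s taken out of the total the E4.5 libraries were at 10.5% to 12.2% and overlapped Epi E5.5 in vivo at 11.05% and 11.9%. In the endoderm line the share was 7.20% to 7.70% in PrE E4.5, 12.4% to 13.7% at E4.75, 10.97% to 11.95% at E5.0 and 10.4% to 10.95% at E5.25, and 8.44% to 9.55% in VE in vitro at E5.5. TE rose from 11.7% to 12.6% at E3.5 to 14.65% to 14.97% at E4.5, ranges that do not overlap. ExE stood at 16.4% to 17.3% at E4.75, and at E5.5 at 11.8% to 13.2% in vitro and 12.02% and 12.57% in vivo. TGC stood at 14.96% to 17.0% at E4.75 and 10.7% to 11.7% at E5.5. Epi E5.25 in vivo was spread widest, with 1 library at 12.3% and 2 near 16.4%.

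**Figure D1:**
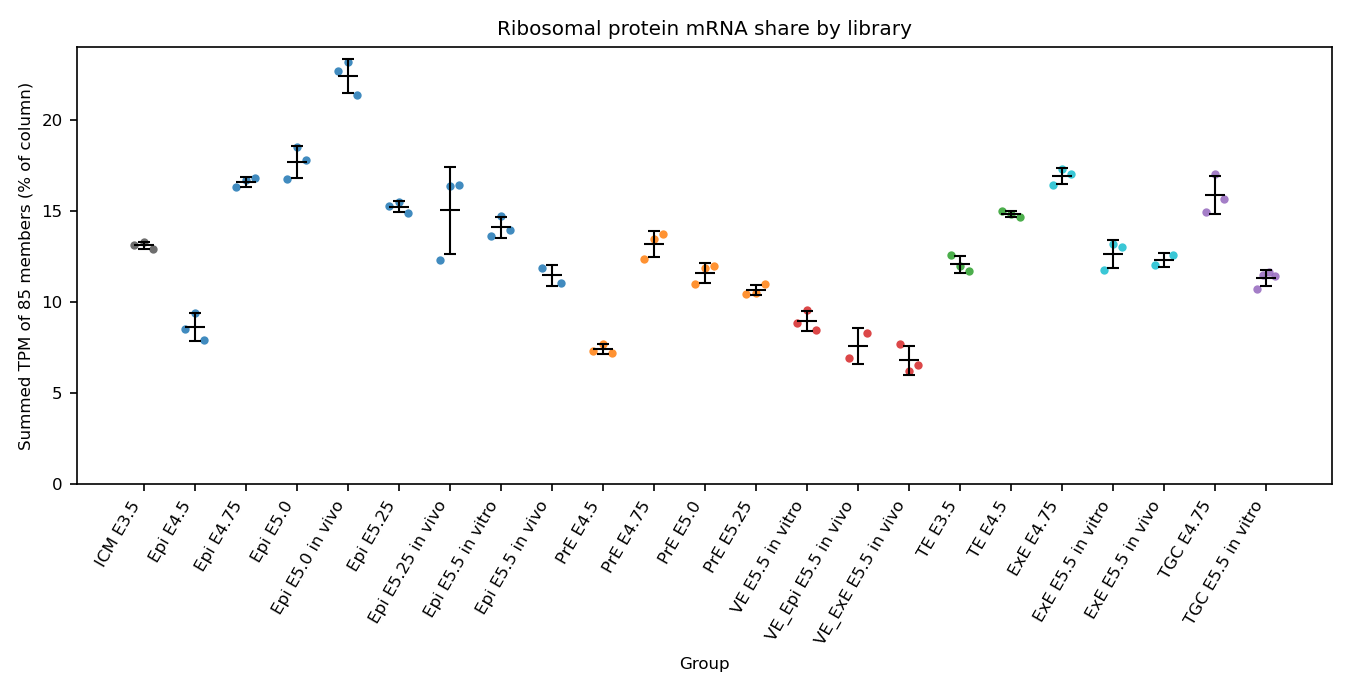
Summed TPM of the 85 ribosomal protein genes as a percent of each library's total (y axis) in the 23 groups (x axis). Points are libraries, colored by lineage, and bars give the mean ± SD. Epi E5.0 in vivo lies highest at 21.4% to 23.2%, and Epi E4.5, PrE E4.5 and the 3 visceral endoderm groups lie lowest, all at or below 9.55%.

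The 23 groups differed in this share by a permutation F test (F = 66.96, p = 1e-05, the smallest value that 100000 permutations can give). F was 114.8 without replicate 1 of Epi E5.25 in vivo, the library set apart above. The ordered groups nonetheless form a continuum: ranges of neighbours in the order were separate for 2 of 22 neighbouring pairs. The difference in means was -4.49 percentage points for Epi E4.5 minus ICM and 7.97 for Epi E4.75 minus Epi E4.5. It was -5.15 for VE minus epiblast in vitro at E5.5, -3.39 for PrE minus epiblast at E4.75, and -4.73 for Epi E5.0 minus its in vivo counterpart. Epi E5.5 lay 2.64 points higher in vitro than in vivo. For TE minus ICM it was -1.02 and for Epi E5.5 in vitro minus Epi E4.75 -2.48. With 3 libraries a side, or 3 against 2, the exact permutation test (two-sided) cannot fall below 0.1, and 8 of the 10 planned pairs reached that floor with ranges that did not overlap. TGC minus ExE was -1.05 points at E4.75, with overlapping ranges (exact permutation p = 0.2), and -0.60 without TGC replicate 1 and -1.62 without TGC replicate 2. At E5.5 in vitro it was -1.34 points, with ranges that did not overlap. The exact permutation p was 0.0286, the floor for 4 against 3 libraries, or 0.111 adjusted over the 10 pairs. Without any 1 library the difference was -1.78 to -1.08 points. The permutation p was then 0.0667 to 0.1, which cannot show a weaker difference because fewer libraries raise the floor itself. With Rn45s taken out of the total, the means were 11.04% in Epi E4.5 and 24.7% in Epi E5.0 in vivo, the step from ICM to Epi E4.5 was -2.13 points, and the step from Epi E4.5 to E4.75 was 5.71 points. Actb alone took 13.3% of TPM on average in VE_ExE and 10.2% in VE_Epi in vivo, against 3.04% in VE in vitro, and its part in the low share was not tested.

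From ICM to Epi E4.5, 62 of 85 members were lower and 7 higher (limma, Benjamini-Hochberg adjusted p under 0.05, on log2(TPM + 1)), beside 22.4% of all 15567 genes tested called lower and 16.8% higher. The median member differed by -0.75 on the log2 scale and the median of all genes by 0.00. Rps29, a small zinc-binding protein of the small subunit, stood at 323 ± 50 TPM (SD, n = 3) in Epi E4.5 against 2461 ± 146 in ICM (-2.94 ± 0.21 SE, adjusted p = 1.94e-17). Rpsa, which also lends its precursor to the laminin receptor, went the other way: 650.1 ± 82.5 against 296.3 ± 4.5 TPM (1.12 ± 0.13, adjusted p = 1.33e-10). With Rn45s removed the counts were 47 lower and 17 higher, and under quantile normalization 42 and 22. The step from Epi E4.5 to E4.75 raised 71 members and lowered 4, beside 20.9% and 11.4% of all genes. These comparisons share the Epi E4.5 libraries. Rpl38, known for its part in translating Hox mRNAs, was 230 ± 43 TPM at E4.5 and 2121 ± 228 at E4.75 (3.21 ± 0.18, adjusted p = 1.74e-20). Rps29 was 2713 ± 152 at E4.75 (3.08 ± 0.21). Rpsa fell by 0.55 on the log2 scale to 442 ± 23 TPM (adjusted p = 4.84e-04). The split was 52 higher and 16 lower under quantile normalization.

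Transcript length moved with these differences. Across the 77 core members, whose median annotated lengths run from 345 to 5130 bases, the log2 difference of Epi E4.5 from ICM had r = 0.52 and rho = 0.60 with log2 length. The 26 shortest members had a median difference of -1.41 and the 26 longest of -0.42. For Epi E4.75 against E4.5 the values were r = -0.56, 1.77 and 0.57, and for Epi E5.0 against its in vivo group r = -0.40, -0.07 and -0.48. In each of these comparisons 1 side is a group of high Rn45s. Epi E5.25 against its in vivo group, neither of high Rn45s, had r = -0.36. For TE against ICM at E3.5 r was -0.12. These correlations are over genes of the same libraries and are descriptions, and the part of RNA quality or of the amplification in the differences was not tested.

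**Figure D2:**
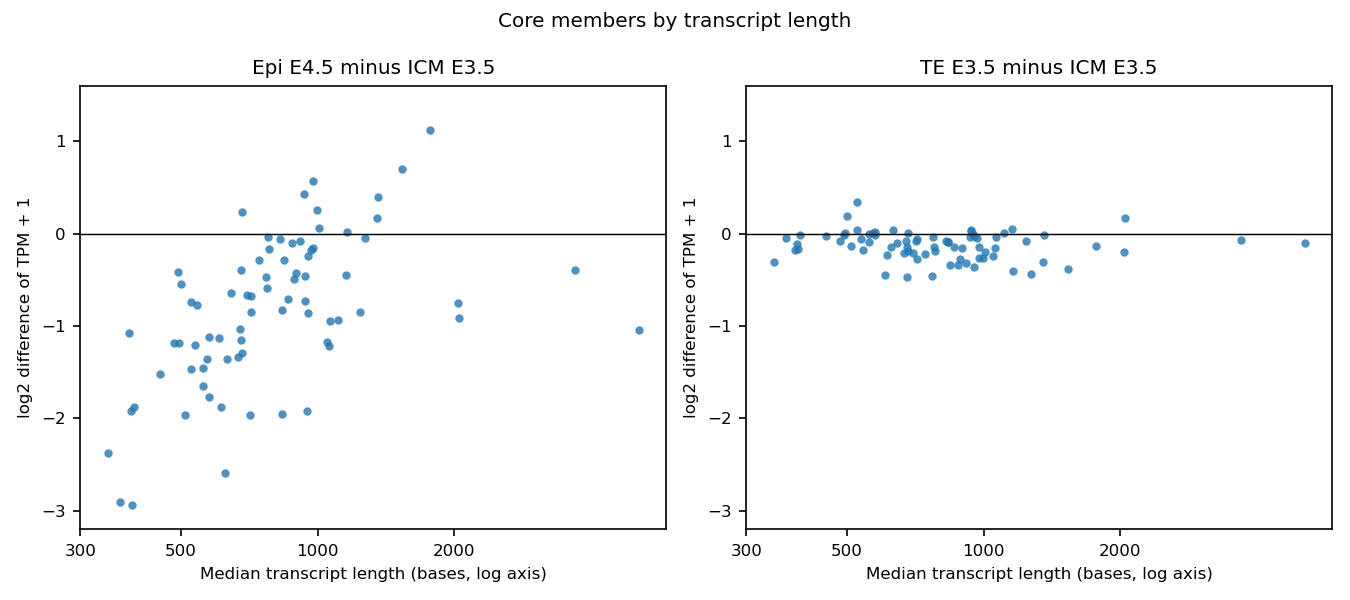
Log2 difference of TPM + 1 (y axis) against median annotated transcript length in bases (x axis, log scale) for the 77 core members, 1 point per gene. For Epi E4.5 against ICM the shortest members lie lowest (median -1.41 for the shortest 26), whereas for TE against ICM the points lie near 0 at all lengths.

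At E3.5, 15 members were lower in TE and 0 higher, beside 11.6% and 7.92% of all genes. Their median difference was -0.13 on the log2 scale against -0.06 for all genes. Rpl7l1, a relative of Rpl7 that acts in ribosome assembly, was 158 ± 11 TPM in TE and 251 ± 12 in ICM (-0.67 ± 0.21, adjusted p = 0.0198), but missed the threshold without ICM replicate 3 or without TE replicate 1 (-0.63 and -0.61). Under median-ratio scaling 2 members were higher and 1 lower. Among the 40 tested genes of ribosome biogenesis (processing and assembly factors), 29 were lower in TE and 0 higher, with a median of -0.78. From E3.5 to E4.5, a comparison added after the data were seen, 33 members rose in TE and 12 fell, beside 29.1% of all genes called. Rps18 stood at 1483 ± 124 TPM at E3.5 and 3445 ± 113 at E4.5 (1.22 ± 0.14, adjusted p = 1.90e-10), and Rps14 at 2883 ± 150 and 5811 ± 325 (1.01 ± 0.11). All genes had a median of -0.26 in that step. Under an alternative scaling of the libraries 63 members rose and 1 fell.

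In the endoderm, members were lower than in epiblast at both stages compared. At E4.75, 53 of 85 were lower in PrE and 0 higher (13.5% and 11.2% of all genes), with a median of -0.40. At E5.5 in vitro, 74 were lower in VE and 0 higher (16.7% and 21.1%), with a median of -0.60 against 0.00 for all genes. Rps12, a small subunit protein, was 340 ± 22 TPM in VE and 867.5 ± 182 in epiblast (-1.33 ± 0.14, adjusted p = 9.23e-12). Rpl26, known for binding the p53 mRNA, was 356 ± 36 and 834 ± 63 TPM (-1.23 ± 0.22, adjusted p = 7.24e-06). Most differences were small: 9 of the 74 reached 1 log2 unit. The difference from epiblast was itself tested between the stages: it was lower at E5.5 than at E4.75 for 19 members and higher for 2, beside 5.68% and 8.92% of all genes. The E5.5 groups were cultured in vitro and the E4.75 groups carry no such label, so age and culture cannot be told apart. Other parts of the machinery were lower as well: at E4.75, 28 of 40 ribosome biogenesis genes, 14 of 25 translation factors and 6 of 12 genes of RNA polymerase I were lower in PrE and 0 higher. At E5.5, 19 biogenesis genes and 12 translation factors were lower in VE, with 0 and 1 higher.

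Giant cells were compared with ExE at E4.75, where 8 members were lower in TGC and 0 higher, beside 4.25% and 2.75% of all genes. Leaving out any 1 library left 3 or 4 called. At E4.75 the giant cell markers summed to 1711 to 1895 TPM in ExE and 18964 to 22602 in TGC. Endoderm markers summed to 810 to 893 TPM in these ExE libraries and 224 to 261 in TGC. The part of either list in the differences was not tested. At E5.5 in vitro, 44 members were lower in TGC and 9 higher, beside 38.9% and 8.63% of all genes. The median member differed by -0.33, and the median of all genes by -0.51. Under median-ratio scaling 67 were higher and 1 lower. That scaling rests on genes above 0 TPM in every library, so its step need not match the -0.51. The giant cell markers given above summed to 101479 to 115322 TPM in these TGC libraries and to 175 to 201 in ExE. Their part in these differences was not tested. Rps21 was 318 ± 16 TPM in TGC and 764 ± 90 in ExE (-1.26 ± 0.15, adjusted p = 5.09e-10). Of the 40 ribosome biogenesis genes, 38 were lower in TGC and 0 higher, with a median of -1.38, and 8 of 12 RNA polymerase I genes were lower.

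From Epi E4.75 to E5.5 in vitro, 50 members fell and 7 rose, beside 15.1% and 15.8% of all genes. Rpl35, a large subunit protein near the tunnel exit, had 3812, 3492 and 3742 TPM at E4.75 and 14220.4, 14791 and 11728 at E5.5 (1.88 ± 0.13, adjusted p = 1.90e-17). Rpl7a, also of the large subunit, rose from 1718 ± 92 to 3122 ± 119 TPM (0.86 ± 0.08). Epi E5.5 in vitro against in vivo gave 37 members higher and 11 lower, beside 19.6% and 8.81% of all genes. Rps19, the gene most often mutated in Diamond-Blackfan anaemia, was 3567 ± 285 TPM in vitro and 1271 ± 103 in vivo (1.49 ± 0.16, adjusted p = 2.25e-10). Rpl36 was 1345 ± 238 and 544 ± 28 TPM (1.29 ± 0.19). Under median-ratio scaling the split was 15 higher and 18 lower, and a fit of these 2 groups alone called 12 members. Epi E5.0 against its in vivo group gave 42 lower and 10 higher (4.57% and 28.2% of all genes). There the median member differed by -0.34 and the median gene by 0.39. Rps4x, an X-linked small subunit gene, was 1586 ± 110 TPM against 5028 ± 186 in vivo (-1.67 ± 0.11, adjusted p = 7.16e-18). Rpl29, a non-essential large subunit protein, was 830 ± 36 against 223.5 ± 37 (1.90 ± 0.10), and Rps27, a zinc-binding small subunit protein, 1014 ± 116 against 472 ± 16 (1.09 ± 0.18). Under median-ratio scaling 72 were lower and 1 higher.

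Rpl39l (chromosome 16, 10170226 to 10174911, GRCm38, GENCODE M21) had 820.1, 845.8 and 795.7 TPM in ICM and 716, 622 and 581 in TE at E3.5. Rpl39 in ICM was at 962, 979 and 998 TPM, so that Rpl39l made up 45.6% ± 1.1 of the pair (SD, n = 3). At E4.5 it had 35.2, 45.5 and 40.6 TPM in TE and 60.5, 62.2 and 68.2 in epiblast. The fall was -3.95 ± 0.26 in TE (adjusted p = 2.37e-18) and -3.67 ± 0.26 from ICM to epiblast (adjusted p = 1.58e-17), far beyond the spread between libraries. Relative to the core median the fall from ICM to epiblast was smaller, at -2.92 to -2.73 without any 1 library. The fall in TE was -4.17 to -4.03 on that scale. Rpl39 averaged 268 TPM in Epi E4.5, where Rpl39l made up 19.4% ± 3.1 of the pair (SD, n = 3). In epiblast Rpl39l then stood at 148, 147 and 141 TPM at E4.75, 46.0, 43.5 and 37.7 at E5.0, and 15.4, 19.4 and 11.8 at E5.25, and was listed at 0 in all 3 Epi E5.5 in vitro libraries. Primitive endoderm went from 19.7, 21.5 and 17.5 TPM at E4.5 through 69.5, 71.4 and 88.1 at E4.75 to 7.78, 7.22 and 3.70 at E5.25. In TPM both lines were higher at E4.75 than at E4.5 and E5.0. Relative to the core median the epiblast step from E4.5, a group of high Rn45s, to E4.75 missed the threshold (-0.05 ± 0.25, adjusted p = 0.871).

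The in vivo groups lay above their counterparts, although in vivo epiblast at E5.25 was also lower than at E5.0 and ExE in vivo at E5.5 lower than ExE at E4.75. Epi E5.0 in vivo had 110.1, 125 and 115 TPM, Epi E5.25 in vivo 44.0, 77.7 and 71.5, and Epi E5.5 in vivo 81.4 and 74.0. Visceral endoderm in vivo had 204, 200.5 and 169.7 TPM over the ExE and 145 and 174 over the epiblast, against 0.13, 0.73 and 0 in VE in vitro. ExE at E5.5 had 18.8 and 7.10 TPM in vivo and 0, 1.82 and 1.41 in vitro. Endoderm markers summed to 655 to 805 TPM in the ExE in vitro libraries and 4.596 to 6.353 in vivo, and their part in the ExE differences was not tested. In every pair of groups labelled for the same lineage and age, all in vivo libraries lay above all libraries of the counterpart. The difference was -1.44 ± 0.26 for epiblast at E5.0 (adjusted p = 1.06e-05), -1.97 ± 0.26 at E5.25 (6.10e-08), -2.74 ± 0.29 for ExE (1.49e-10), -7.26 ± 0.26 for VE against VE_ExE (4.47e-29) and -7.00 ± 0.29 against VE_Epi (4.86e-26), on the log2(TPM + 1) scale. For Epi E5.5 the adjusted p was 6.63e-24, with no fold given because the in vitro group is listed at 0. All but the E5.0 and E5.5 epiblast pairs were added after the data were seen. Relative to the core median the E5.0 and E5.5 epiblast differences were called as well. Rpl39 itself was 195, 220 and 342 TPM in Epi E5.5 in vitro and 362 and 281 in vivo. In VE it was 233, 232 and 192 TPM in vitro, and 94.8, 138 and 140 in VE_ExE in vivo. Rpl39l accordingly made up 60.8% ± 6.9 of the pair in VE_ExE (SD, n = 3) and 0.12% ± 0.17 in VE in vitro. Uterine stroma and blood markers were at or near 0 in VE in vivo: the stromal genes Dcn, Des, Col3a1, Hand2 and Pgr were all listed at 0 there, and blood markers summed to at most 10.5 TPM. In epiblast the stromal genes summed to 18.5 to 27.8 TPM in Epi E5.5 in vivo and 4.52 to 21.9 in vitro. They reached at most 18.8 TPM in Epi E5.25 in vivo, 6.98 in Epi E5.0 in vivo and 4.03 in ExE E5.5 in vivo. Their part in the differences was not tested. The depth behind these values is unknown, and TPM values of 0 are listed values, not a proof of absence.

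In giant cells Rpl39l had 32.5, 31.5 and 29.6 TPM at E4.75 against 90.4, 78.9 and 86.5 in ExE (-1.42 ± 0.26, adjusted p = 5.42e-05). At E5.5 in vitro it had 10.2, 10.7, 10.5 and 13.03 TPM, against at most 1.82 in ExE (2.67 ± 0.24, adjusted p = 7.24e-14). From the lowest group the order runs from Epi, VE and ExE in vitro at E5.5, which overlap, to PrE E5.25, then TGC E5.5, PrE E5.0, ExE E5.5 in vivo, Epi E5.25 and PrE E4.5, whose neighbours overlap. TGC E4.75 and TE E4.5 each stand apart from the group below, as do Epi E4.5, Epi E5.0 in vivo, Epi E4.75, TE E3.5 and ICM. The 5 genes whose group means followed Rpl39l most closely over the 23 groups were Ooep (Pearson r = 0.80), Fkbp6 (0.79), Naa11 (0.78), Morn2 (0.78) and Dppa3 (0.76). This likeness is a description chosen among all genes tested.

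**Figure D3:**
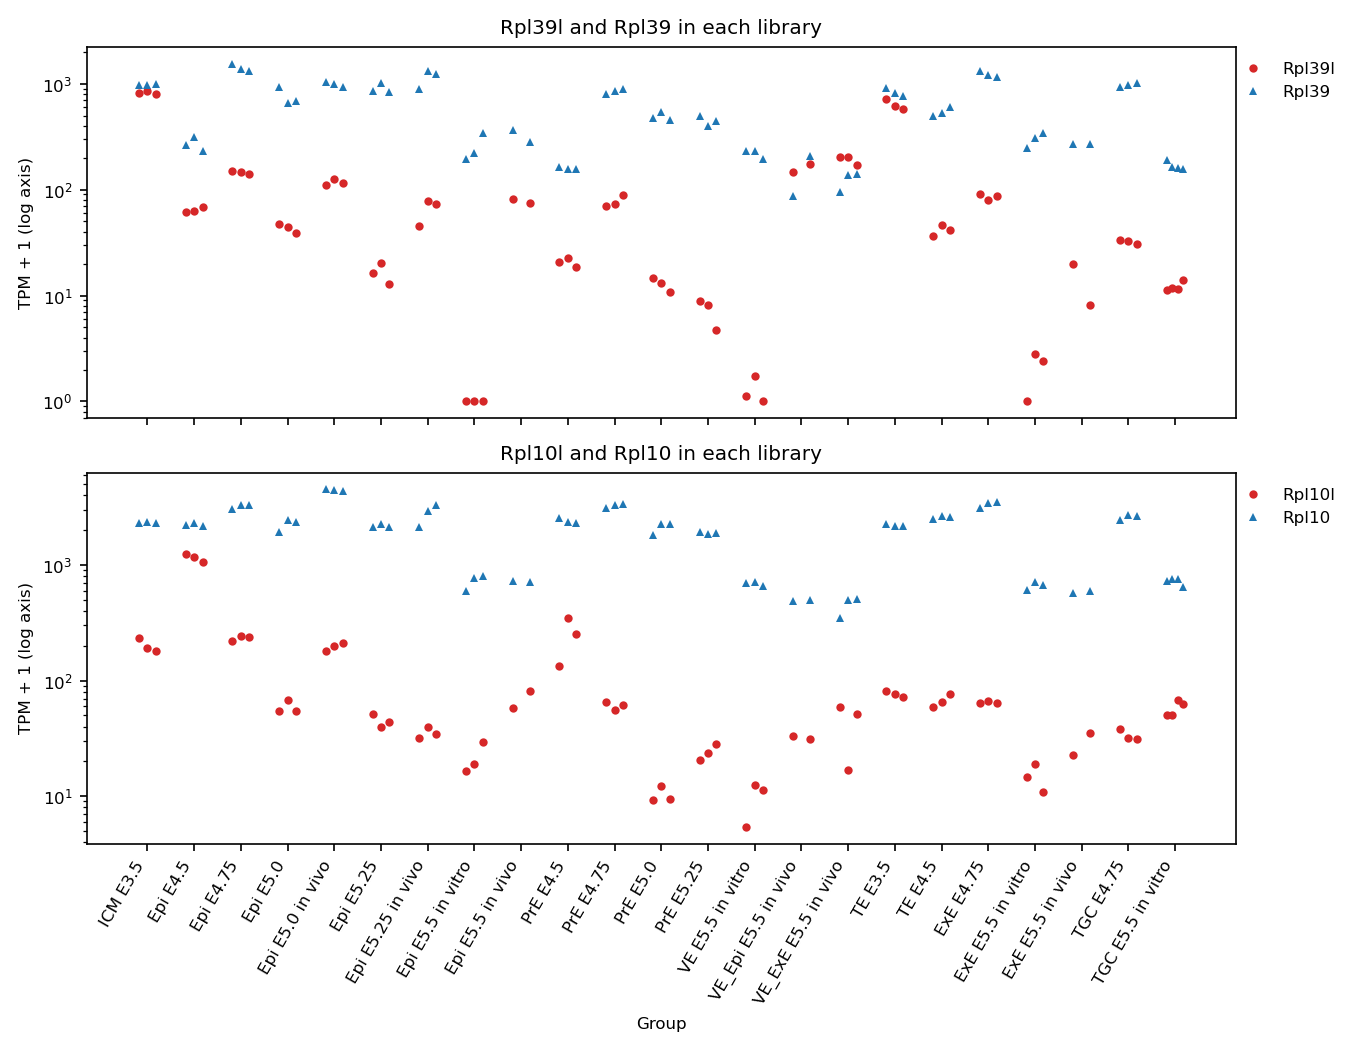
TPM + 1 (y axis, log scale) of Rpl39l with Rpl39 and of Rpl10l with Rpl10 in each library of the 23 groups (x axis), circles for the paralog and triangles for the core gene. Rpl39l runs from about 820 TPM in ICM to 0 in Epi E5.5 in vitro and stands above Rpl39 in VE_ExE in vivo, and Rpl10l is highest in Epi E4.5.

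Rpl10l (chromosome 12, 66283379 to 66284401), an autosomal retrogene copy of the X-linked Rpl10, was highest in Epi E4.5 at 1242, 1177 and 1056 TPM. ICM had 234, 190.0 and 181 TPM, and the difference was 2.52 ± 0.29 (adjusted p = 1.87e-10), in the direction opposite to most core members. It was 34.1% ± 1.7 of the pair in Epi E4.5 and 7.96% ± 1.09 in ICM. PrE E4.5 was uneven, with 134, 347 and 254 TPM. Epiblast then had 219, 240.1 and 237 TPM at E4.75 and 15.4, 18.1 and 28.6 at E5.5 in vitro (-3.47 ± 0.29, adjusted p = 1.84e-14). It was lower in PrE than in epiblast at E4.75 (59.9 ± 4.9 against 232 ± 12 TPM, -1.94 ± 0.29), and lower in TE than in ICM (75.4 ± 4.5 against 202 ± 28, -1.40 ± 0.29). At E5.5 it was higher in TGC than in ExE in vitro (56.7 ± 8.9 against 13.9 ± 4.1, 1.98 ± 0.27). Epi E5.0 was below its in vivo group (-1.74 ± 0.29, adjusted p = 2.73e-06), and Epi E5.5 in vitro below in vivo, at 57.2 and 79.8 TPM (-1.71 ± 0.32). At E5.25, in contrast, the ranges overlapped (50.8, 38.3 and 42.4 against 31.1, 39.0 and 33.8 TPM).

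Rps27l (chromosome 9, 66946086 to 66949516), a target of p53, exceeded Rps27 in the mean of every group, making up from 54.3% ± 3.5 of the pair in ExE E5.5 in vivo (n = 2) to 81.4% ± 2.2 in TE E4.5 (n = 3). Rps27rt, a retrogene of Rps27 outside the symbol rule, was listed above Rps27 in every group mean, for example at 1553 against 1067 TPM in ICM and 2674 against 1164 in Epi E5.5 in vitro, so values of Rps27 and this pair are uncertain where reads could be placed on either copy. Rps27l was lowest in VE in vivo, at 585 and 741 TPM over the epiblast and 732, 659 and 657 over the ExE, and highest in TE E4.5, at 4465, 4300.2 and 4135. Each of the groups without the in vivo label was above its counterpart: VE by 1.12 ± 0.11 and 1.17 ± 0.13, ExE by 1.098 ± 0.13, and epiblast by 0.40 ± 0.11 at E5.0, 0.76 ± 0.11 at E5.25 and 0.42 ± 0.13 at E5.5 (adjusted p from 6.36e-12 to 7.91e-03). The E5.0 difference was -0.27 under median-ratio scaling, and the E5.0 difference missed the threshold without Epi E5.0 replicate 1 (0.28) or Epi E5.0 in vivo replicate 3 (0.31). The E5.5 difference missed it without in vitro replicate 3 (0.28) or in vivo replicate 2 (0.32).

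Rpl22l1 (chromosome 3, 28805436 to 28807424) also exceeded its core partner in every group, at 66.8% to 88.8% of the pair on average. Its group mean was lowest in TGC E5.5, at 140.3, 136, 139 and 119 TPM, against 416, 615 and 630 in ExE in vitro (-2.02 ± 0.18, adjusted p = 9.03e-14), with no overlap. Epi E5.0 in vivo had 1227, 1061 and 1004 TPM against 557, 504 and 506 in Epi E5.0 (-1.07 ± 0.20, adjusted p = 1.77e-05). Rps4l (chromosome 6) was listed between 209 and 2183 TPM and Rpl7l1 between 42.5 and 301 TPM. Rpl32l (chromosome 10) stayed at or below 7.87 TPM, and Rpl3l (chromosome 17) was listed at 0 in 41 of the 67 libraries and reached 5.29 TPM at most.

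The 4 core members of highest mean level were Rpl35 (5087 TPM), Rpl4 (3820.3), Rpl41 (3709) and Rps25 (3693). The range of group means reached 4.498 log2 units over the core members, with a median of 2.56. The widest belonged to Rps25, Rps20, Rps10 and Rpl35, and Rpsa, Rpl7a and Rpl9 were among the narrowest. Rps20 lay between 31.0 in VE_ExE in vivo and 578 in Epi E5.0 in vivo, which also bound the range of Rps10 at 198 and 3197 TPM.

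Libraries of E5.5 stood apart from younger ones in some members, whatever the lineage. Rps25 (chromosome 9, 44407139 to 44410427), a small subunit protein known from internal initiation of translation, ran from 3749 through a median of 6544 to 10143 TPM in the 22 libraries of E5.5. In the 45 younger libraries it ran from 391 through 2083 to 3216, with no overlap. Rpl35 (chromosome 2, 39001580 to 39005624) had 4203, 8002 and 14791 TPM as lowest, median and highest at E5.5, and 677, 3492 and 5344 before, with overlap only in TPM and none relative to the core. Rpl10 (chromosome X, 74270812 to 74273135), which completes the large subunit's peptidyl transferase region, had 349, 666 and 801 TPM at E5.5 and 1834, 2377 and 4504 before. Rpl18 had 519, 987 and 1467 TPM against 1725, 2571 and 5727, and Rps4l 209, 301 and 463 against 785, 1134 and 2183. Rps4x, the partner of Rps4l, had 329, 735 and 1163 TPM against 880, 1579 and 5237, with overlap. For Rps25, Rpl10, Rpl18 and Rps4l the separation held for all E5.5 libraries, which are epiblast, endoderm and ExE from in vitro and in vivo and giant cells from in vitro.

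In TPM, 1 member lay wholly above and 3 (Rpl10, Rpl18 and Rps4l) wholly below the younger libraries, beside 0.668% and 0.193% of all genes tested. Relative to the core median, 3 (Rps25, Rpl35 and Rpl7a) lay above and 3 below, among them Rpl10 and Rps10, beside 0.707% and 0.0385%. This split by age was examined after the data were seen, and the libraries of E5.5 share no age with others, so age and any difference in processing cannot be told apart. The labels name no batch.

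**Figure D4:**
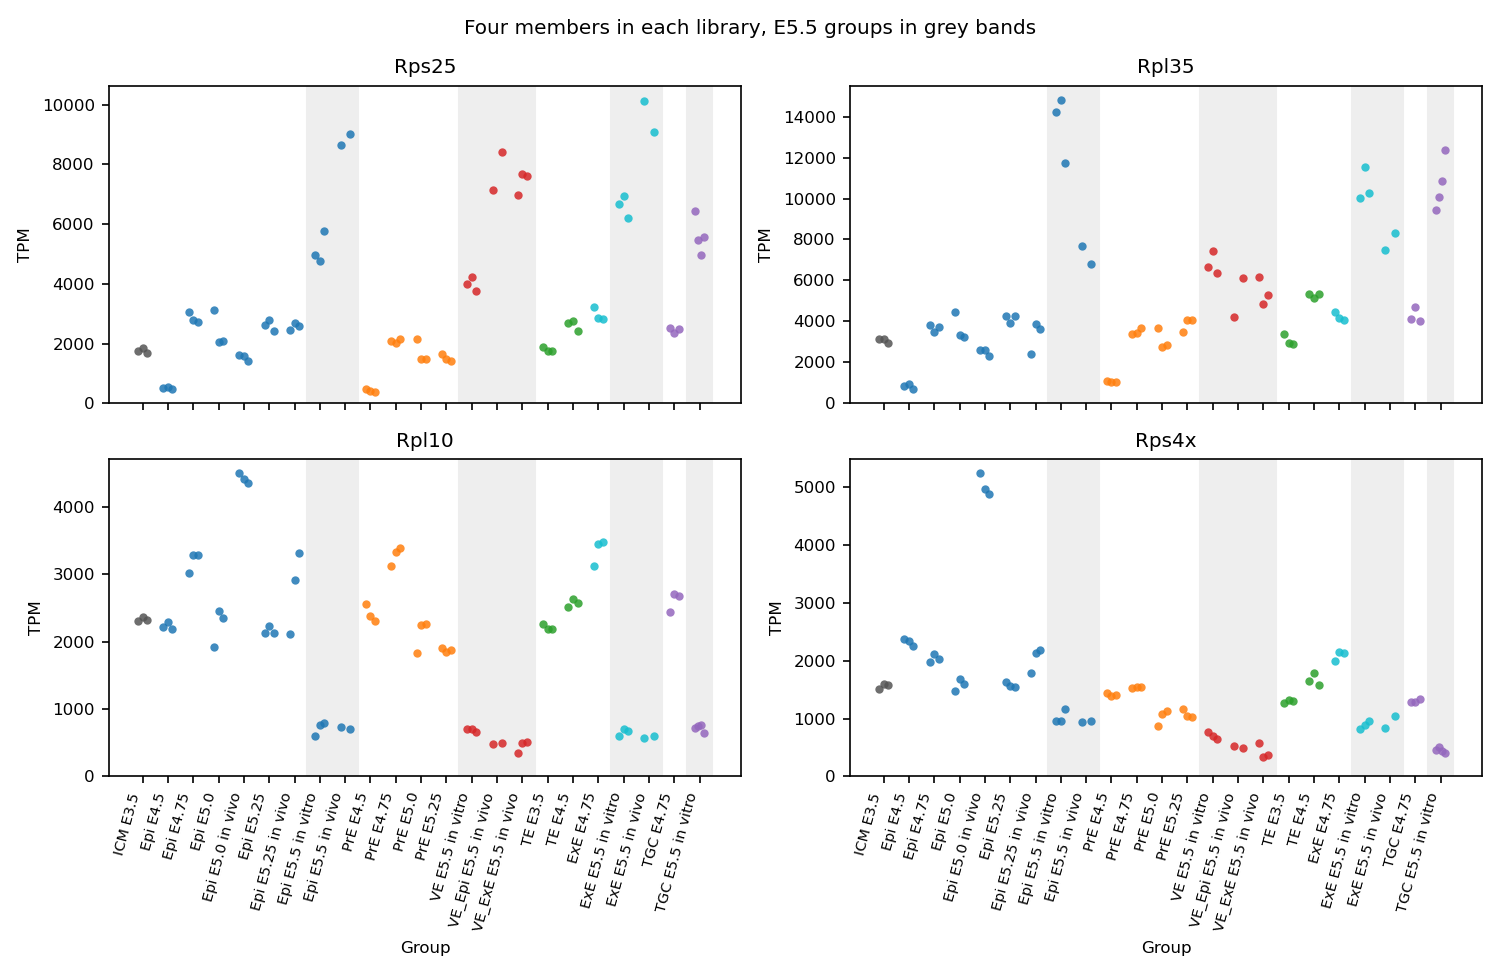
TPM (y axis, from 0) of Rps25, Rpl35, Rpl10 and Rps4x in each library of the 23 groups (x axis), colored by lineage, with E5.5 groups on grey bands. Rps25 lies above 3700 TPM in every E5.5 library and at or below 3216 in all others, and Rpl10 lies at or below 801 TPM at E5.5 and above 1800 elsewhere.

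With a minimum difference of 1 log2 unit as well, 36 members remained called for Epi E4.5 against ICM beside 30.6% of all genes, 49 for Epi E4.75 against E4.5 beside 24.6%, and 20 for Epi E5.5 in vitro against E4.75 beside 22.3%. The count was 9 for VE against epiblast in vitro beside 28.6%, 1 for PrE beside 17.0% and 1 for TE beside 13.5%. For TGC against ExE it was 1 at E4.75 beside 4.36% and 9 at E5.5 beside 37.8%, and for epiblast against in vivo 11 at E5.0 beside 25.0% and 8 at E5.5 beside 21.8%. In the last 7 of these 10 comparisons the members' share lay below that over all genes.

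Relative to the core median of each library, members still differed in many comparisons, with counts to be read against the share of all genes called. In the TE, PrE, VE and TGC E4.75 comparisons the members' share lay below that of all genes. From ICM to Epi E4.5, 34 members were higher and 30 lower than the core median, beside 59.1% of all genes called, and in the next step to E4.75 25 and 36 (64.7%). From Epi E4.75 to E5.5 in vitro 33 were higher and 24 lower (41.4% called). For VE against epiblast in vitro 22 were higher and 13 lower (52.5%), and for PrE against epiblast at E4.75 12 and 5 (24.6%). For TGC against ExE 1 was higher and 2 lower at E4.75 (5.09%), and 24 and 39 at E5.5 (41.1%). For epiblast against in vivo 23 were higher and 35 lower at E5.0 (37.5%), and 24 and 19 at E5.5 (23.9%). TE against ICM gave 3 higher and 4 lower (17.1%), with Rpl41, Rplp1 and Rps27l higher and Rpl10l, Rpl13a, Rpl24 and Rpl6 lower. In these fits the median of all genes differs from 0, since they are scaled to the members.

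**Figure D5:**
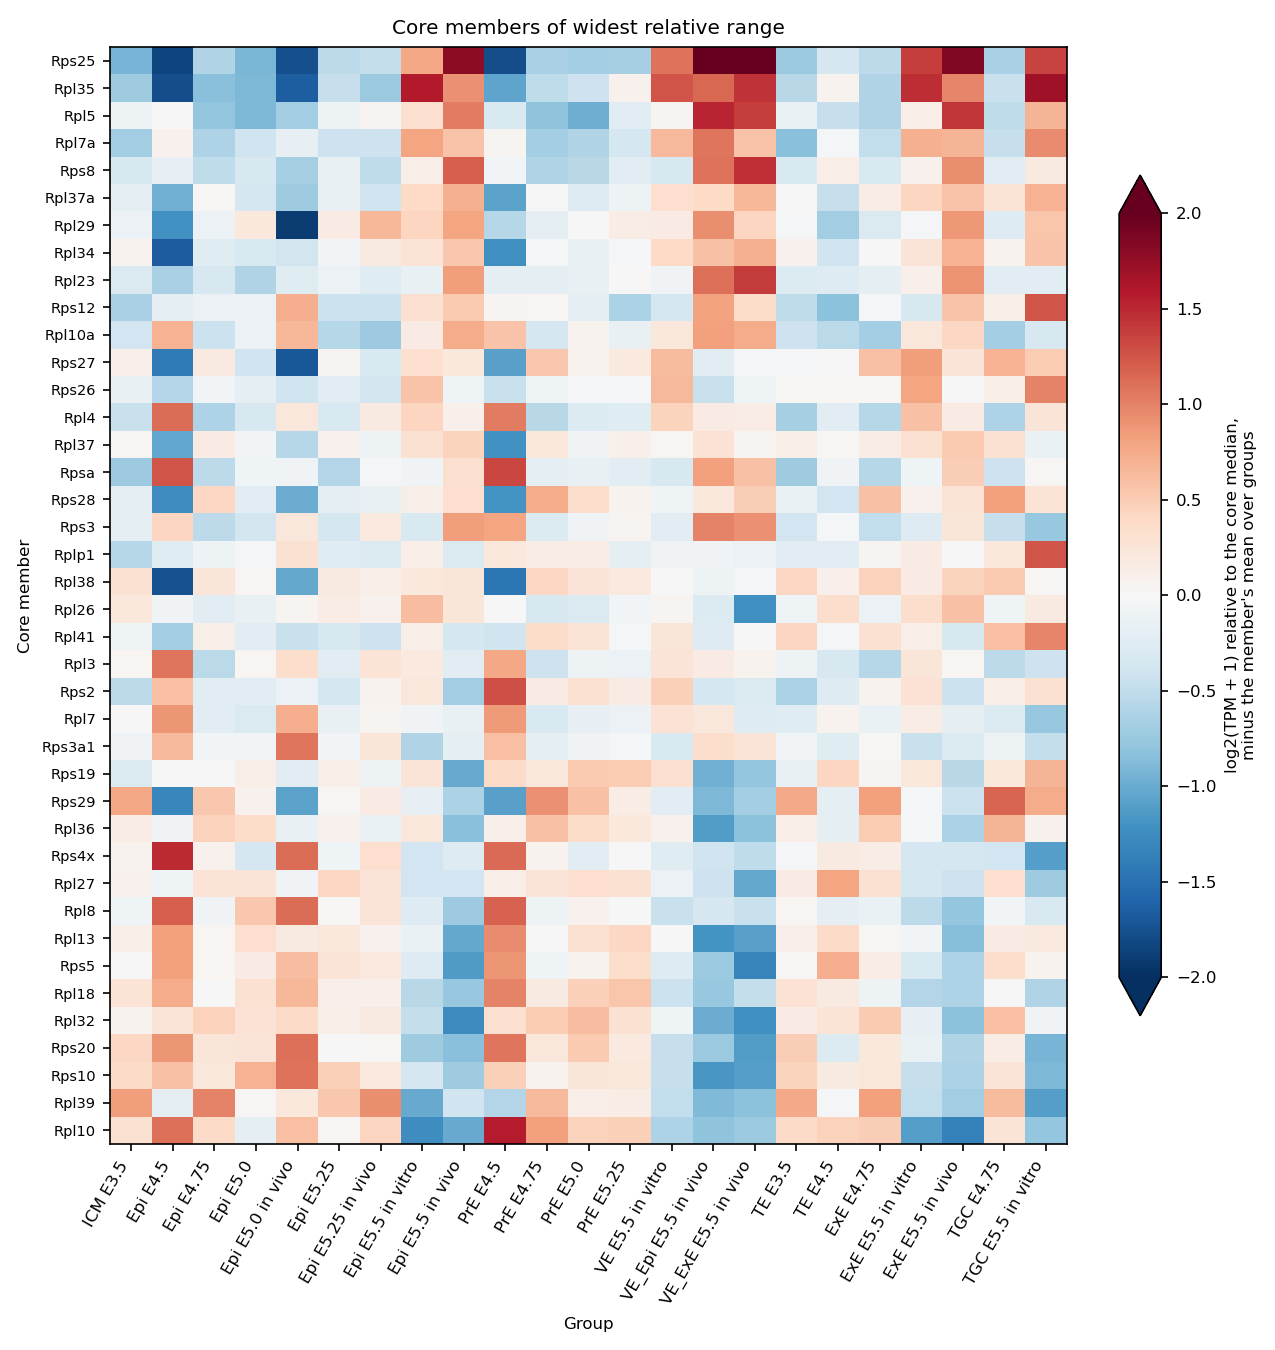
Group mean of log2(TPM + 1) minus the library's core median, centred on each gene's mean over the 23 groups (color, -2 to 2), for the 40 core members of widest relative range (rows) in the 23 groups (columns), ordered by the E5.5 groups against the rest. Rps25 and Rpl35 at the top are red in the E5.5 groups, Rpl10 and Rpl39 at the bottom are blue there, and Epi E4.5 and PrE E4.5 share a pattern with low Rps25, Rpl38 and Rps29 and high Rpsa and Rps4x.

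Visceral endoderm in vitro was also compared with both in vivo groups, after the data were seen. Against VE_ExE, 56 members were higher in vitro and 12 lower (43.0% of all genes called), and against VE_Epi 43 and 16 (24.4%). These 2 comparisons share the in vitro libraries. Rpl32 was 1265 ± 99 TPM in vitro and 438 ± 238 in VE_ExE (1.65 ± 0.14), and Rpl13 2142 ± 195 in vitro and 752 ± 21 in VE_Epi (1.51 ± 0.13). Rps25 ran the other way, at 3997 ± 247 TPM in vitro and 7427 ± 399 in VE_ExE (-0.89 ± 0.11). The median of all genes differed by 0.41 and 0.21, and under median-ratio scaling the splits were 27 to 23 and 17 to 24. In ExE at E5.5, 15 were higher in vitro and 16 lower (15.7% called), among them Rpl5, a partner of the nuclear 5S RNA complex, at 1358 ± 42 against 3513 ± 510 TPM (-1.36 ± 0.11). Under median-ratio scaling 3 were higher and 21 lower. Epiblast at E5.25 gave 6 higher and 11 lower (15.2% called), with Rpl23a at 1829 ± 32 TPM against 1251 ± 254 in vivo (0.57 ± 0.10).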

How the data were processed

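RNA was measured by Smart-seq2 on pooled cells, amplified by PCR and built with the KAPA Hyper Prep kit, per the labels' protocols. The submitters' processing notes name mm10 and the tools StringTie 2.2.1, Cufflinks and HISAT2 2.2.1. The order of these steps, the gene models and whether strand was used are not given in the sources used here, so overlapping and near-identical genes are uncertain. The authors deposited TPM, a share with no depth: columns summed to 985702 to 996469, and 8423 to 12644 genes a library reached 1 TPM.

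Genes at 1 TPM or more in at least 3 libraries were kept (15567 genes, all 85 members). log2(TPM + 1) was fitted with limma 3.58.1 (R 4.3.3, trend) over 23 group means, with Benjamini-Hochberg adjustment over all kept genes and a threshold of 0.05 with no minimum difference. SE is that of the fitted log2 difference. A further fit subtracted the library's median over the 77 core members. The pseudocount understates changes of low genes. The share was tested with scipy 1.17.1 by permutation. Median-ratio and quantile scaling, a pseudocount of 0.1, no filter, Rn45s removal, array weights, a minimum difference, smaller fits, a replicate block and leaving out each library were tried. Among these, the share of all genes called is given only for the minimum difference in the planned comparisons. The limma step was tested on simulated data.

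Samples were grouped by the labels' tissue and stage. Genes were named by rules: the 4 core members of highest mean and of widest and narrowest range, and in each comparison the 2 called members of largest change in each direction, with the main paralogs. Members and lists were chosen with earlier results of these data known. The coordinates come from GENCODE M21 and promoters from RefSeq. Individual values of a few genes are not reported here.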

Additional observations from a re-analysis of the deposited data

Results flagged for a closer look

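In TGC E5.5 in vitro, 1 of the 4 libraries had Rpl41 at 4456 TPM, apart from the others at 5384, 5420.1 and 5459 by Dixon's test. Chance alone sets some groups of this size apart, at the test's 0.05 level.

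The difference between endoderm and epiblast changed from E4.75 to E5.5 in vitro for 12 of the named members (limma interaction, adjusted p under 0.05, log2 scale). The change was 1.25 for Rpl39l (adjusted p = 0.0131) and 0.72 for Rps7. Rpl39l at E5.5 in vitro is listed at 0 in epiblast and at most at 0.73 TPM in VE, both near the floor. At E4.75 Rpl39l averaged 76.3 TPM in PrE and 145 in epiblast. The change was -1.08 for Rps12, -0.92 for Rpl35, -0.88 for Rps21, -0.85 for Rpsa, -0.63 for Rpl19, -0.62 for Rpl23a, -0.52 for Rpl5, -0.46 for Rpl29, -0.34 for Rpl3 and -0.33 for Rpl7a.

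Here and above, the E5.5 groups were cultured in vitro and those of E4.75 carry no such label, so age and culture cannot be told apart. The difference between TGC and ExE changed over the same ages for 17 of the named members. Among paralogs it was 4.09 for Rpl39l (adjusted p = 1.15e-13), 2.93 for Rpl10l (4.80e-08) and -1.50 for Rpl22l1 (1.59e-05). Among core members it was 1.37 for Rps12, 0.49 for Rpl41, 0.48 for Rpl10, 0.47 for Rpl29 and 0.39 for Rpl5. It was -0.98 for Rps21, -0.84 for Rpl7, -0.81 for Rps20, -0.79 for Rpl3, -0.64 for Rps14, -0.54 for Rpl22, -0.44 for Rpl24, -0.41 for Rps7 and -0.35 for Rpl4. Over all 85 members 8 were higher and 27 lower (4.57% and 18.8% of all genes), with 42 higher and 0 lower under median-ratio scaling.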

How the results depend on the processing

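The comparisons are named here by their first group. With a minimum difference of 1 log2 unit the members called were 1 for TE against ICM, 36 for Epi E4.5 against ICM, 49 for Epi E4.75 against E4.5 and 20 for Epi E5.5 against E4.75. They were 1 for PrE, 9 for VE, 1 and 9 for TGC at E4.75 and E5.5, and 11 and 8 for epiblast against in vivo at E5.0 and E5.5. For the endoderm and TGC changes from E4.75 to E5.5 in vitro, called changes with age below, they were 2 and 4. Relative to the core these were 1, 22, 23, 11, 1, 1, 1, 7, 9 and 7. Array weights gave 30 for TE, 48 for TGC E4.75, 27 for Epi E5.5 against in vivo, and 40 and 53 for the changes with age, and relative to the core 29 for TE, 41 for PrE, 29 for TGC E4.75 and 27 for Epi E5.5 against in vivo. Fitting the compared groups alone gave 34 for TE, 25 for TGC E4.75, 12 for Epi E5.5 against in vivo and 36 for the endoderm change, and relative to the core 24 for TE, 33 for PrE, 19 for VE, 17 for TGC E4.75 and 14 for Epi E5.5 against in vivo. Median-ratio scaling gave 3 for TE, 2 for TGC E4.75 and 34 for the endoderm change. The sign turned for Rps27l in TGC against ExE at E5.5 (0.92) and in Epi E5.0 against in vivo (-0.27), both under median-ratio scaling, and for Rpl10l in TE E4.5 against E3.5 (0.28 quantile, 0.40 median-ratio). The causes were not tested. The share of all genes called is not given under array weights, smaller fits, median-ratio scaling or the replicate block. Those counts therefore do not show a result particular to the members.

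Leaving out 1 library gave 3 to 4 members for TGC E4.75, 9 to 15 for PrE relative to the core, and a TGC share difference of -1.78 to -1.08 points at E5.5. Over 145 results for single genes, 1911 of 2036 alternative values kept their direction and side of the threshold, 109 lost the call, 12 gained it and 4 turned. Between libraries of the same replicate number, correlations of deviations ran from -0.048 to 0.059. At E4.75, however, replicate 1 had the lowest share in Epi (16.29%), PrE (12.37%), ExE (16.42%) and TGC (14.96%). Rn45s was also lowest in replicate 1 of these groups. The lowest share fell on different replicates between lineages at E5.25 and at E5.5 in vitro. Whether libraries of the same number and age share embryos or handling was not tested. With a replicate block the members called were 17 for TE, 57 for Epi E5.5 against E4.75, 54 for TGC E5.5 and 50 for Epi E5.5 against in vivo. TPM keeps no depth, so counting error is unknown.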
